A study of Homo sapiens with 19 samples.

Results

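The 1122 broad ERRα domains described here are the peaks of the heregulin (HRG) list of SKBr3 cells that were at least 5000 bp wide, of 37195 peaks in that list and 264623 peaks in all 8 ERRα peak lists of the study. They made up 3.02% of the HRG peaks and 8.09 Mb of sequence, which is 11.9% of the sequence the list covered. SKBr3 and BT-474 are human breast cancer cell lines with an amplified HER2 gene. SKBr3 cells were deprived of serum for 24 h and then given vehicle, 100 μM EGF or 100 μM HRG for 90 min, and BT-474 cells were treated the same way, with doses as the labels state them. Parental SKBr3 cells (pSKBr3) were untreated, and LRSKBr3 cells are SKBr3 cells made resistant to lapatinib, an inhibitor of EGFR and HER2, and kept in 2 μM of the drug. All lists come from chromatin immunoprecipitation with an antibody against ERRα followed by sequencing. By the labels, each SKBr3, pSKBr3 and LRSKBr3 list belongs to 2 ChIP libraries and 1 input library, and each BT-474 list to 1 ChIP library whose input is that of vehicle-treated BT-474 cells. The peak lists give 1 set of peaks per condition and no tag counts per library, so they show neither the spread between replicates nor the sequencing depth. No test between conditions was made on them, and the 95% intervals given with shares cover counting error only.

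ERRα, encoded by ESRRA, is an orphan nuclear receptor that binds a single extended half-site, the ERR response element (ERRE), and is best known for driving genes of mitochondrial energy metabolism. EGF activates EGFR, and HRG binds HER3 and signals through its pairing with HER2, which leads among other things to induction of AP-1, the dimers of FOS and JUN proteins. A transcription factor bound at one short site gives a peak little wider than the sequenced fragments. Regions of many kilobases can arise where several bound sites lie close together or where the signal over input stays raised along a stretch of DNA, and a peak list alone does not tell these apart.

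The GRCh37 sequence at some of these domains shows how differently they are built. The windows printed here are 150 bases of the plus strand, or 30 at ELF3, with ERRE words (TCAAGGTCA or its reverse complement) and AP-1 words (TGACTCA or TGAGTCA, either strand) in capitals. In an intron of KCNMA1 (chr10:79130508-79130657) and in the last exon of ELF3 (chr1:201985425-201985454), 2 ERRE words overlap as a direct repeat 6 bases apart. In a second KCNMA1 domain (chr10:78918430-78918579) an AP-1 word runs into an ERRE word. The CMIP window (chr16:81550685-81550834) carries its 2 ERRE words in a repeated unit, with 70.6% of its letters equal to the letter 31 bases on. Single ERRE words stand in introns of SDC4 (chr20:43973432-43973581) and EPB41L1 (chr20:34691340-34691489) and between the genes of the S100A cluster (chr1:153514317-153514466), and the intergenic domain nearest to CALML3 (chr10:5589074-5589223) has an AP-1 word. The last window, near ACTRT3 (chr3:169445590-169445739), is the centre of a domain called in no other list, and it is rich in A and T and holds neither word.
KCNMA1 intron: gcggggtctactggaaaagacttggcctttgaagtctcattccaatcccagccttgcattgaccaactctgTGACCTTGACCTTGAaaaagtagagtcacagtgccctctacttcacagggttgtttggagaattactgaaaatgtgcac
ELF3: cgctcgagTGACCTTGACCTTGAccaagtc
KCNMA1 intron, second domain: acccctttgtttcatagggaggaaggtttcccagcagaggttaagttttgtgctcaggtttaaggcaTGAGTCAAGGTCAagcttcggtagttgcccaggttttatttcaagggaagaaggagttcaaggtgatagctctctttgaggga
CMIP intron: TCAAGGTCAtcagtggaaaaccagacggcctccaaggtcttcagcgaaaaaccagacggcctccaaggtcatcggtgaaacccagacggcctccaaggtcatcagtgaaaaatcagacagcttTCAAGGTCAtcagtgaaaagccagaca
SDC4: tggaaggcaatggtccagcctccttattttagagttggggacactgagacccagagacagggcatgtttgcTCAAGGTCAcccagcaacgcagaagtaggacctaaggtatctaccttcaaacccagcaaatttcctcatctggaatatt
EPB41L1: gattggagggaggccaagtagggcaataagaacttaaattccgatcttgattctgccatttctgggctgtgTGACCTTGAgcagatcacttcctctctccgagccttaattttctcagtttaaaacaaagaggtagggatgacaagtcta
S100A cluster: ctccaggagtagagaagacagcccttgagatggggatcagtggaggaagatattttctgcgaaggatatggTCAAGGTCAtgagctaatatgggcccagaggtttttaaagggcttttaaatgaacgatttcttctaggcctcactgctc
Near CALML3: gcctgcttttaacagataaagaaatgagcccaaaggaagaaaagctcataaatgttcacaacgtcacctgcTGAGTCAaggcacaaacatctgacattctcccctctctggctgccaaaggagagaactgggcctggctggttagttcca
Near ACTRT3: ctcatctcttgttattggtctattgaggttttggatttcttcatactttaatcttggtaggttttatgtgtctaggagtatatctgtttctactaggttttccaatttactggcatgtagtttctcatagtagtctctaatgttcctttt

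Width selected the domains and is given as a description. The median width was 6243 bp, with quartiles of 5528 and 7863 bp. Of the 1122 domains, 490 (43.7%) were under 6 kb wide, 127 were at least 10 kb and 30 at least 15 kb. The limit cut through a continuous range of widths. The narrowest domains, in an intron of EEPD1, 137205 bp from a start of OPA1 and in an intron of SEPTIN9, were 5004, 5006 and 5008 bp wide, while peaks at CIRBP, near GUCA2A and in an intron of DNAJC5 fell just short at 4998, 4998 and 4992 bp. The score, which MACS derives from the P value of a peak, had a median of 481 in the domains and 145 in all HRG peaks. Scores were uneven: 180 domains (16.04%; all HRG peaks, 2.73%) reached at least 3100, a value that many peaks share, and 189 (16.8%) stayed under 100. The lower quartile of the score was 79.0 in all HRG peaks.

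The widest domain, 30613 bp, lay on chromosome 20 between 49949859 and 49980471, in intergenic sequence with NFATC2, a calcium-regulated transcription factor gene, as the nearest coding gene. Its widest overlapping peak was 8404 bp in the vehicle list, 7869 bp in EGF, 6132 bp in pSKBr3, 4133 bp in LRSKBr3, 7932 bp in BT-474 vehicle and 5930 bp in BT-474 HRG, and BT-474 EGF had none. The HRG list thus held 1 peak where vehicle held 2 peaks and EGF and LRSKBr3 4 each. A domain of 25074 bp held an annotated transcript start of TGM2, which encodes the cross-linking enzyme transglutaminase 2. The outermost start of the gene, at 36794980, lay outside it. This domain scored 64.1, near the 50 at the peak-calling cutoff. It was matched by 13608 bp in vehicle but by no more than 1956 bp in BT-474. At KCNMA1, a potassium channel gene, the domain of 24245 bp was matched by 20469 bp in vehicle, 16119 bp in EGF, 15048 bp in pSKBr3 and 10650 bp in LRSKBr3, and by 6228, 4323 and 6408 bp in the BT-474 vehicle, EGF and HRG lists. Another KCNMA1 domain, of 18998 bp, had 15921 bp in vehicle and was wider on EGF, at 21912 bp. These were 2 of 7 domains at KCNMA1, of which 3 had a vehicle peak, broad in each case, and 4 had none. The widest of the 4, at 16510 bp, had no EGF peak and no more than 3167 bp in any other list.

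Other very wide domains had no peak in vehicle-treated cells. At EPB41L1, a gene of the membrane cytoskeleton, the HRG domain spanned 23940 bp and neither vehicle nor EGF had a peak, while pSKBr3 had 10303 bp, LRSKBr3 11639 bp and the BT-474 lists 4469, 3099 and 2653 bp. PEDS1 also lacked a vehicle and an EGF peak, with 19945 bp on HRG, 19035 bp in LRSKBr3, 4314 bp in pSKBr3 and 6942, 3918 and 4387 bp in BT-474. The calcium-binding protein genes S100A3, S100A4, S100A5 and S100A6 shared 1 domain of 19642 bp on chromosome 1, from 153503766 to 153523407. It had no vehicle peak, 16280 bp on EGF, 3163 bp in pSKBr3, 8566 bp in LRSKBr3 and 1620 bp in BT-474 vehicle, with no peak in the other BT-474 lists. The EGF and BT-474 vehicle peaks there scored only 54.2 and 63.1, near the 50 at the peak-calling cutoff. At NCOA6, PIGU and TP53INP2 a domain of 17219 bp had 14730 bp on EGF and none in vehicle or in any BT-474 list, and a domain of 17138 bp in EYA2 had 14015 bp on EGF and none in vehicle. SYNPO, which encodes an actin-associated protein, had 23932 bp on HRG, 14336 bp on EGF and 6892 bp in vehicle, and CXXC5 had 18532, 14780 and 5936 bp. A domain without a vehicle peak could still have one in untreated pSKBr3 cells, for which the labels give no serum starvation: pSKBr3 and LRSKBr3 had a peak at each of the 30 domains of at least 15 kb, vehicle at 23 and EGF at 25, while a peak of at least 5000 bp lay over 17 in pSKBr3, 26 in LRSKBr3, 21 in vehicle and 23 in EGF.

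**Figure D1:**
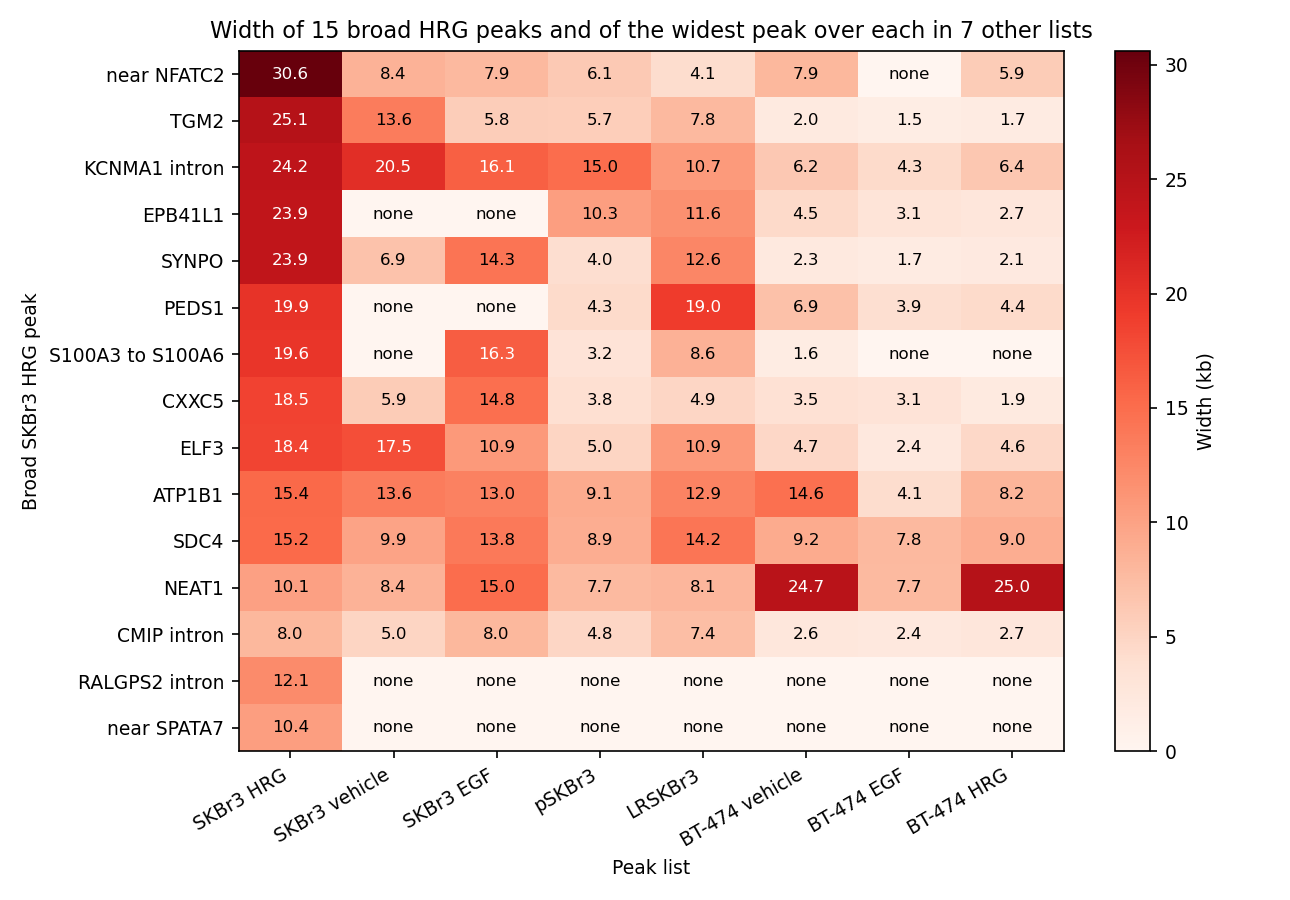
Width in kb (colour and numbers) of 15 broad domains in the SKBr3 HRG list, first column, and of the widest overlapping peak in each of the 7 other lists, with "none" where no peak overlapped. EPB41L1 and PEDS1 have no vehicle or EGF peak but are 11639 and 19035 bp wide in LRSKBr3, NEAT1 is widest in BT-474 vehicle and HRG at 24719 and 25019 bp, and the domains at RALGPS2 and SPATA7 occur on HRG alone.

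Going down to 15 kb, the 30 widest domains, listed here after their values were seen, included 17 with a coding start. Beyond those above they covered SLC2A1, the glucose transporter GLUT1 (16359 bp on HRG, 10816 bp in vehicle), TRIB3, a stress-induced pseudokinase (16006 and 8134 bp), TRAF4, a signalling adaptor (16122 and 8365 bp), HSPB1, the small heat shock protein HSP27 (15265 and 2867 bp), and the syndecan genes SDC1 (17076 and 7274 bp) and SDC4 (15205 and 9867 bp). A peak wider than the HRG domain occurred at 1 of the 30 in EGF and at 0 in each of the other lists, which choosing the members for their width on HRG favours.

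Across all 1122 domains, 615 (54.8%, interval 51.9 to 57.7) had an overlapping peak in the SKBr3 vehicle list, against 48.8% of all HRG peaks. The share was 61.6% in EGF (all HRG peaks, 57.9%), 67.9% in pSKBr3 (45.6%) and 76.9% in LRSKBr3 (66.9%). In BT-474 it was 54.3% for vehicle (38.1%), 44.5% for EGF (29.04%) and 54.7% for HRG (40.5%). An overlap of 1 bp counted, which favours wide regions. When peaks of the other list had to cover 50% of the region, the order turned: 38.7% of the domains and 46.9% of all HRG peaks passed in vehicle, 57.8% and 64.3% in LRSKBr3, and 19.96% and 35.3% in BT-474 vehicle.

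Strength also differs, so the domains were set beside 11898 narrow HRG peaks, under 2000 bp wide, with a score of at least 144, the lower quartile of the domains (median score 299.8, against 481 in the domains). Relative to these, the domains were found less often in vehicle, with a difference of -14.3 points (interval -17.4 to -11.3), in EGF, with -19.4 points (-22.3 to -16.5), and in LRSKBr3, with -6.96 points (-9.60 to -4.50). They were found more often in pSKBr3, by 4.10 points (1.18 to 6.90), in BT-474 vehicle, by 5.16 points (2.10 to 8.19), and in BT-474 EGF, by 5.89 points (2.87 to 8.94). For BT-474 HRG the difference of 2.91 points had an interval of -0.15 to 5.94. These excesses rest on the overlap of 1 bp. With 50% of the region covered, the domains fell below the strong narrow peaks in all 7 lists, with 38.7% against 69.1% in vehicle, 31.9% against 62.5% in pSKBr3, 19.96% against 48.5% in BT-474 vehicle and 9.45% against 38.0% in BT-474 EGF. The order of the lists also turned: by 1 bp more domains had a peak in pSKBr3 than in vehicle or EGF, and by 50% coverage fewer did, at 31.9% against 38.7% and 46.3%. Against HRG peaks of at least 4000 bp but under the limit, the share with a peak by 1 bp differed by 0.95 points in vehicle (-3.42 to 5.32), and the intervals for EGF, pSKBr3, LRSKBr3 and BT-474 EGF also included 0. It was higher by 5.12 points in BT-474 vehicle (0.73 to 9.48) and by 4.67 points in BT-474 HRG (0.28 to 9.03). At 50% coverage these turned too, to 19.96% against 29.5% in BT-474 vehicle and 19.3% against 26.99% in BT-474 HRG, and the domains were lower in all 7 lists.

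A broad counterpart was much less frequent than a peak. A vehicle peak of at least 5000 bp lay over 231 domains (20.6%), compared with 1.14% of all HRG peaks. The share was 24.4% in EGF (all HRG peaks, 1.41%), 6.86% in pSKBr3 (0.274%), 23.9% in LRSKBr3 (1.34%), 6.60% in BT-474 vehicle (1.75%), 2.50% in BT-474 EGF (0.664%) and 6.51% in BT-474 HRG (1.70%). The low share in pSKBr3 depends on the width limit: with the 1122 widest peaks of each list it was 29.3%, against 25.1% in vehicle and 30.5% in EGF. Wide regions offer more bases to overlap, and the part of length in these shares was not tested. The lists also differed in how many broad peaks they held at all, from 231 in pSKBr3 and 592 in BT-474 EGF to 657 in LRSKBr3, 803 in EGF, 863 in vehicle, 1058 in BT-474 vehicle and 1224 in BT-474 HRG. BT-474 HRG therefore had more broad peaks than SKBr3 HRG, and only 75 of its 1224 overlapped a domain. Of the 863 broad vehicle peaks, 389 (45.1%) had any HRG peak and 236 (27.3%) a broad one. The matching shares over all peaks of the BT-474 HRG and vehicle lists were not counted, so these values have no background beside them.

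**Figure D2:**
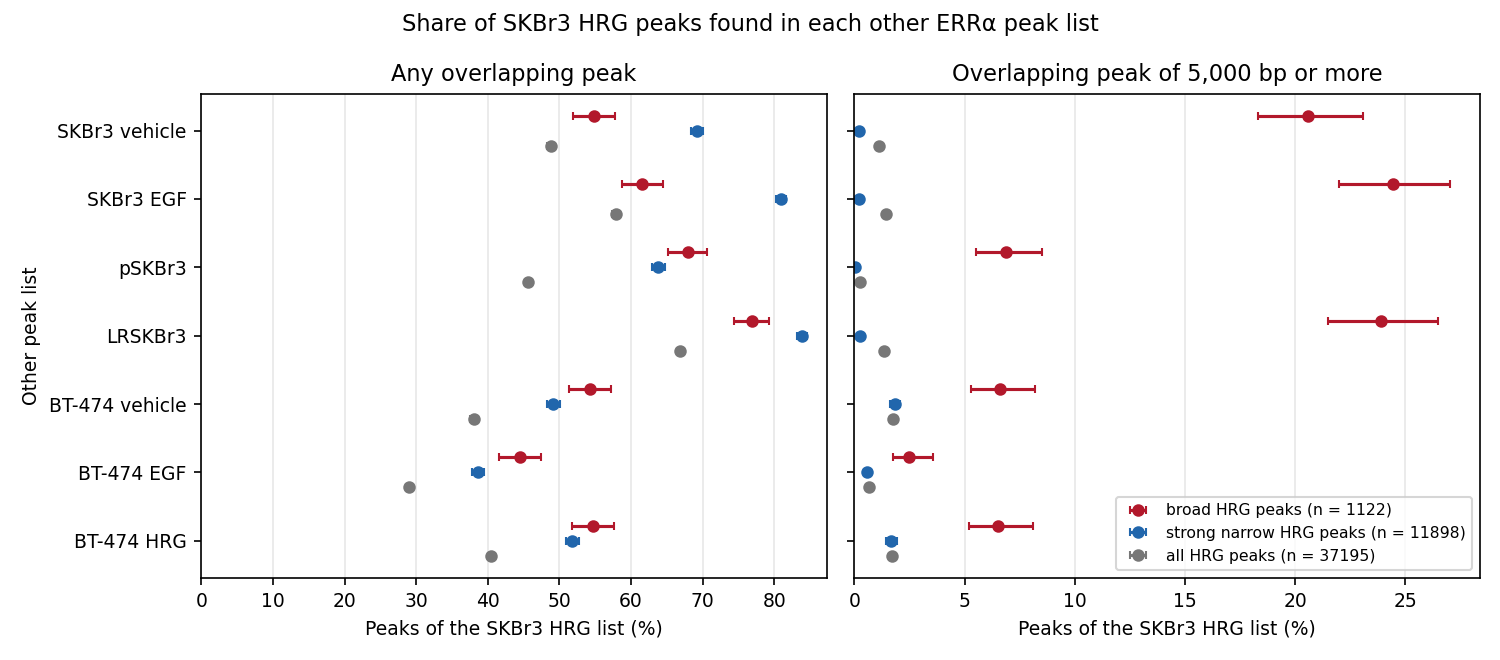
Share of HRG peaks (percent, x axis) with any overlapping peak (left) or an overlapping peak of at least 5000 bp (right) in each of the 7 other lists, for the 1122 domains, 11898 strong narrow peaks and all 37195 HRG peaks, with 95% Wilson intervals. On the left the domains lie below the strong narrow peaks in vehicle, EGF and LRSKBr3 (54.8%, 61.6% and 76.9% against 69.1%, 80.9% and 83.9%), and on the right they reach 24.4% in EGF but 2.50% in BT-474 EGF.

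Where a peak overlapped, it was usually narrower. The widest matching peak had a median of 0.579 of the width of the domain in vehicle (0.554 to 0.617), 0.616 in EGF, 0.547 in LRSKBr3, 0.363 in pSKBr3 and 0.376, 0.307 and 0.358 in the BT-474 vehicle, EGF and HRG lists. Among all HRG peaks the ratio was 0.992 in vehicle, 1.02 in EGF, 1.06 in LRSKBr3, 0.785 in pSKBr3 and 1.37, 1.18 and 1.34 in the BT-474 lists, so pSKBr3 was the lowest of the SKBr3-derived lists there too. Ratios under 1 are favoured by the choice of wide peaks in 1 list. More than 1 peak lay over 12.6% of the domains in vehicle (all HRG peaks, 1.01%), 16.04% in EGF (1.18%), 26.4% in pSKBr3 (1.97%) and 28.7% in LRSKBr3 (2.17%), and over 12.7%, 9.89% and 13.6% in BT-474 vehicle, EGF and HRG (0.755%, 0.559% and 0.842%). Wide regions have more room for several peaks. Among the domains the share with a matching peak rose with width, which the overlap of 1 bp favours. It was 51.3% in vehicle and 72.6% in LRSKBr3 for the 788 domains under 7500 bp, and 66.9% and 95.3% for the 127 of at least 10 kb. Below the limit the share did not keep rising. HRG peaks from 3000 to under 4000 bp had 56.8% and 78.3%, and those of 4000 to under 5000 bp had 53.9% and 76.4%.

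By combination, 507 domains (45.2%; all HRG peaks, 51.2%) had no vehicle peak, 384 (34.2%; all HRG peaks, 47.7%) a vehicle peak under 5000 bp and 231 a broad one. Without a vehicle peak but with an EGF peak were 108 (9.63%; all HRG peaks, 13.9%), and with an LRSKBr3 peak 258 (22.99%; all HRG peaks, 21.98%), which was broad in 58 (5.17%; all HRG peaks, 0.347%). Neither vehicle nor EGF had a peak at 399 (35.6%; all HRG peaks, 37.3%), and 165 of these had one in LRSKBr3 (14.7%; all HRG peaks, 14.9%). Both shares with an LRSKBr3 peak of any width were thus near those of all HRG peaks. No BT-474 list had a peak at 443 (39.5%; all HRG peaks, 54.2%), and 33 (2.94%; all HRG peaks, 2.58%) were found in BT-474 lists but in no other SKBr3-derived list. A peak occurred in all 7 other lists at 379 domains (33.8%; all HRG peaks, 17.4%) and in none at 187 (16.7%; all HRG peaks, 18.9%). A broad peak in vehicle, EGF, pSKBr3 and LRSKBr3 together occurred at 39 (3.48%; all HRG peaks, 0.108%). A broad peak in all 7 occurred at 6 (0.535%), a share not counted over all HRG peaks. These 6 are named here after their values were seen. They were SDC4 (15205 bp on HRG, 7817 to 14162 bp elsewhere), the start of NEAT1 (10090 bp, 7672 to 25019 bp), an intron of ARRB1, the gene of the receptor adaptor β-arrestin 1 (8266 bp, 5807 to 9845 bp), an annotated transcript start inside SYT12 (8060 bp, 5334 to 7904 bp), and intergenic regions with PTPN1 (18516 bp, 5267 to 10826 bp) and CALML3 (5754 bp, 5140 to 7793 bp) as the nearest coding genes. At CALML3 every BT-474 list was wider than SKBr3 HRG, and so, by less, were SKBr3 vehicle (5922 bp) and EGF (5844 bp).

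The domains were not spread over the genome like other HRG peaks. Chromosome 7 held 211, chromosome 1 held 193, chromosome 20 held 162, chromosome 17 held 94 and chromosome 10 held 88, together 748 (66.7%), although these 5 chromosomes carried 30.4% of all HRG peaks. On chromosome 20 the share of the domains was 4.97 times its share of HRG peaks (interval 4.30 to 5.72), on chromosome 7 2.86 times and on chromosome 17 1.87 times. Of the 1081 HRG peaks on chromosome 20, 14.99% were domains. Of the 1168 on chromosome 4, 1 was, and chromosomes 18 and X had 0 of 478 and 0 of 662, which counting error limits to 0.80% and 0.58% of their peaks.

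The same 5 chromosomes, chosen on the HRG list, held 59.6% of the broad peaks in vehicle, 64.3% in EGF, 82.3% in pSKBr3 and 69.3% in LRSKBr3. In BT-474 they held 29.9% for vehicle, 25.5% for EGF and 29.1% for HRG, against 24.2%, 23.8% and 23.7% of all BT-474 peaks. The vehicle and HRG shares were thus above those of all peaks, by less than in the SKBr3-derived lists, and the EGF share was near. On chromosome 20, 10.8% of vehicle peaks and 14.97% of LRSKBr3 peaks were broad, against 6.47% in BT-474 vehicle. BT-474 had its highest share of broad peaks on chromosome 8, at 12.5% in vehicle, where SKBr3 HRG had 2.0%. Chromosomes 20, 7, 17 and 10 held a larger share of the broad peaks than of all peaks in each of the 5 SKBr3-derived lists, from 1.30 times on chromosome 17 in vehicle to 10.1 times on chromosome 20 in pSKBr3. On chromosome 1 this held on HRG alone, at 1.42 times, against 0.644 in vehicle, 0.982 in EGF, 0.280 in pSKBr3 and 0.649 in LRSKBr3. Vehicle had more broad peaks on chromosomes 3 and 14, 115 and 105, than on chromosome 1, with 69. In BT-474 the ratio was also above 1 on chromosomes 20 (1.86 to 2.01), 7 (1.26 to 1.93) and 17 (1.16 to 1.72), and it was 0.198 to 0.412 on chromosome 10. The lists carry no measure of DNA copy number.

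**Figure D3:**
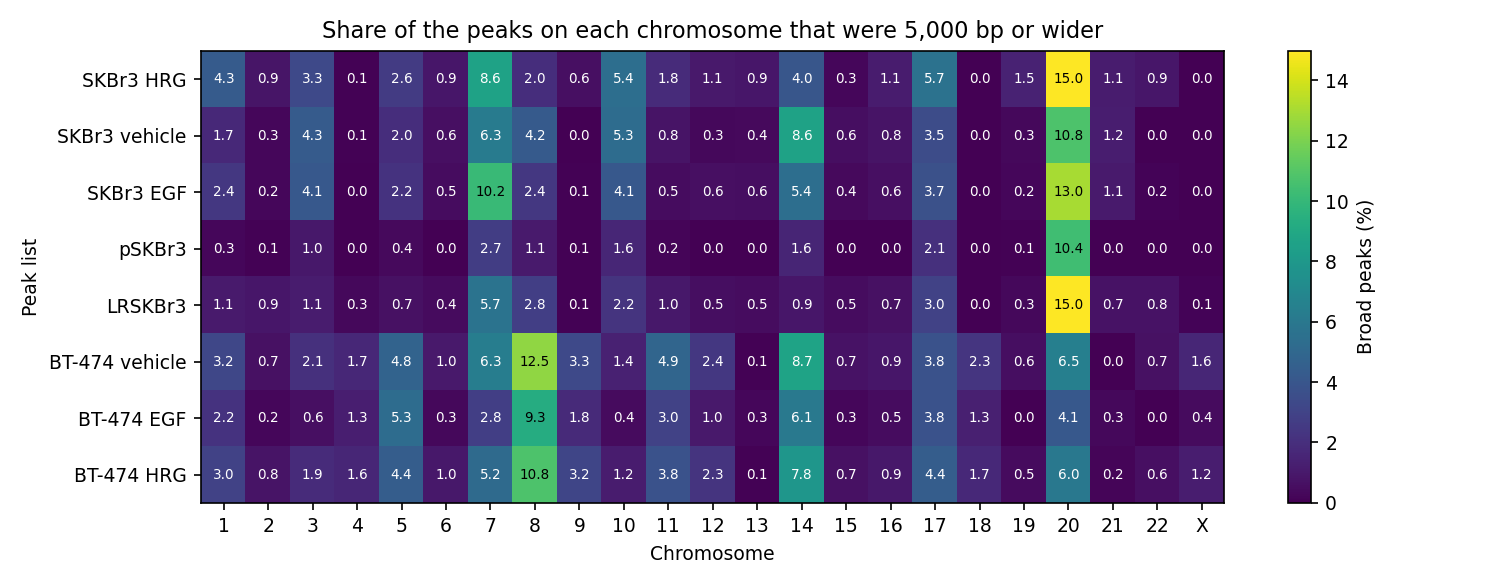
Percent of the peaks on each chromosome (columns) that were at least 5000 bp wide in each list (rows), by colour and number; chromosome Y, with 3 HRG peaks, is left out. Chromosome 20 stands out in the 5 SKBr3-derived lists, with 10.4% to 14.99%, and chromosome 8 in BT-474, with 9.3% to 12.5%.

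Within chromosomes the domains were clustered. Another domain lay within 100 kb of 677 (60.3%, interval 57.4 to 63.2). Joining domains less than 1 Mb apart gave 240 blocks, of which 106 were a single domain, while 29 blocks of at least 10 held 640 domains (57.0%) in 99.6 Mb that carried 7.86% of all HRG peaks. The largest, on chromosome 20 from 32953284 to 37544945, held 50, so that 51.5% of its 97 HRG peaks were broad and domains covered 9.50% of its sequence. It spans NCOA6, EPB41L1 and TGM2. The next, on chromosome 20 from 43963422 to 51178367, held 47 and includes SDC4, PEDS1 and the domain nearest to NFATC2. Blocks of 43 lay on chromosome 1 (201137853 to 205636670, with ELF3) and chromosome 10 (71074248 to 77057551, with VCL), and a block of 41 on chromosome 17 (72963454 to 81152678).

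Inside the 29 blocks, 21.9% of HRG peaks were broad by construction, against 1.41% elsewhere. Lists that had no part in choosing the blocks showed a similar split: 21.6% and 1.41% of vehicle peaks, 21.2% and 1.27% of EGF peaks, 6.80% and 0.361% of pSKBr3 peaks and 10.2% and 0.895% of LRSKBr3 peaks. In BT-474 the values were closer, at 4.99% and 3.18% for vehicle, 2.34% and 2.20% for EGF and 3.63% and 2.93% for HRG. The tendency to broad peaks in these regions was therefore present in vehicle-treated and untreated SKBr3 cells. Inside the blocks 45.8% of the domains had a vehicle peak (interval 42.0 to 49.7) and outside them 66.8% (62.5 to 70.9), while a broad vehicle peak lay over 21.6% and 19.3%.

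Single blocks showed further differences between lists. On chromosome 7 from 122314185 to 131378039, 35 of 66 HRG peaks were broad, as were 38 of 57 in vehicle, 32 of 60 in EGF, 26 of 64 in pSKBr3 and 30 of 51 in LRSKBr3, against 4 of 140 in BT-474 vehicle. On chromosome 14 from 85833045 to 92342550, vehicle had the most broad peaks, 79 of 197, against 32 of 87 on HRG, 48 of 111 on EGF and 4 of 118 in LRSKBr3. On chromosome 7 from 115526114 to 119854069, LRSKBr3 and pSKBr3 had 6 and 8 peaks in all, against 54 on HRG, 62 in vehicle and 99 on EGF. On chromosome 1 from 153327516 to 157127353, with the S100A cluster, LMNA and TPM3, 32 of 165 HRG peaks were broad but 4 of 73 in vehicle, 10 of 88 in EGF, 0 of 140 in pSKBr3 and 1 of 180 in LRSKBr3.

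**Figure D4:**
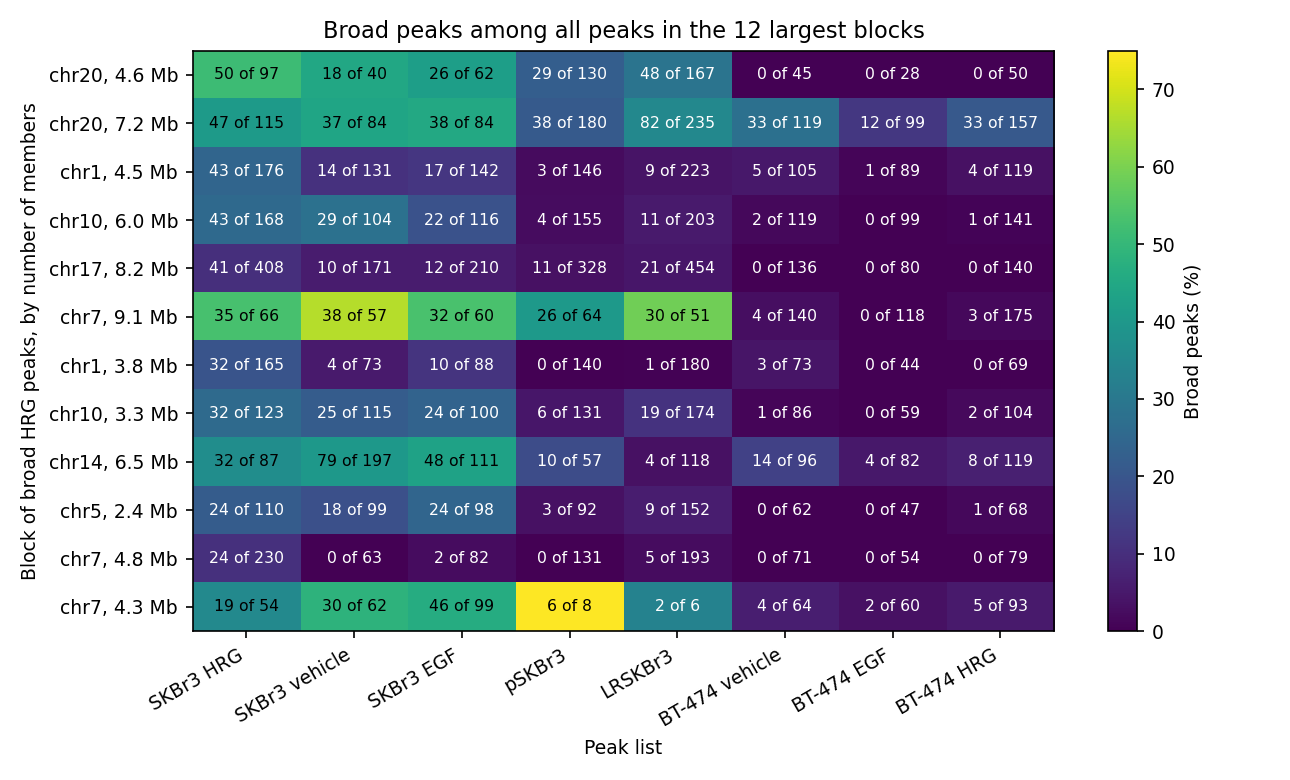
Broad peaks among all peaks (numbers) and their percent (colour) in each list within the 12 blocks with the most domains, named by chromosome and length. Blocks were chosen on SKBr3 HRG, first column; the first chromosome 20 block has 18 of 40 broad peaks in vehicle and 0 of 45 in BT-474 vehicle, and the chromosome 14 block has its highest count, 79, in vehicle.

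Domains held gene starts more often than all HRG peaks did, and they were longer. A start of a protein-coding gene, counting all annotated transcripts, lay inside 371 domains (33.1%, interval 30.4 to 35.9) against 19.0% of all HRG peaks, and inside 60 (5.35%; all HRG peaks, 2.83%) there were starts of at least 2 coding genes. Of their centres, 16.8% (14.7 to 19.1) were within 1 kb of a start, compared with 19.7% of all HRG peaks. At longer range the domains were closer than all HRG peaks: 63.9% of the centres (61.1 to 66.7) lay within 20 kb of a start against 59.7%. The median distance was 9793 bp (8542 to 11405) against 12007 bp. HRG peaks of 4000 to under 5000 bp were near the domains in these values, so the values did not set the domains apart from them. Of those peaks, 29.8% (26.9 to 32.9) held a coding start, and 19.6% (17.1 to 22.3) of their centres were within 1 kb of one. Within 20 kb lay 63.5% (60.3 to 66.6), and the median distance was 9557 bp (7470 to 11236). The centre of the domain was intronic in 49.0%, intergenic in 43.0% and exonic in 7.93%. In all, 408 of 20136 coding genes (2.03%) had a start in a domain, and 7026 (34.9%) had one in any HRG peak. These shares are the background for the gene lists that follow, whose members were picked with earlier results of these data known.

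Of 29 luminal breast lineage and keratin genes, 6 had a start in a domain, and 17 had one in some HRG peak. They were ELF3 and SPDEF, epithelial ETS factors, KRT7, KRT8 and KRT18, keratins of simple epithelium, and STARD10, a lipid transfer protein. ELF3 had 18389 bp on HRG, 17511 bp in vehicle, 10856 bp on EGF, 5005 bp in pSKBr3, 10857 bp in LRSKBr3 and 4686, 2373 and 4641 bp in BT-474, so this domain was almost as wide in vehicle as on HRG. KRT8 was 8049 bp wide on HRG, 2476 bp in vehicle and 9333 bp in LRSKBr3. The domain shared by KRT18 and KRT8 measured 11651 bp on HRG and 4645 bp in vehicle. SPDEF measured 7602 bp on HRG and 1438 bp in vehicle, where the peak scored only 52.1, and pSKBr3 and BT-474 had no peak there.

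Among 34 actin cytoskeleton and adhesion genes, 5 had a start in a domain, and 28 had one in some HRG peak. ACTN4, an actin cross-linker, had starts in 2 domains, of 7404 and 10002 bp on HRG, with 2138 and 3782 bp in vehicle, and VCL, which links actin to adhesions, had 6594 and 5464 bp. The start of JUP (plakoglobin, 8931 bp) had no vehicle or EGF peak. LMNA, the gene of lamins A and C, had starts in 2 neighbouring domains: that of 7001 bp had no vehicle or EGF peak, and that of 12124 bp had 4747 bp in vehicle, 4667 bp on EGF and a peak in all 7 other lists. TPM3 (tropomyosin, 9670 bp, with a low score of 89.8) had 2308 bp in vehicle and none on EGF. ACTB and PLEC were overlapped by a domain away from their starts.

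AP-1 and other immediate early genes gave 4 of 42 starts in a domain and 22 in some HRG peak. BHLHE40, a basic helix-loop-helix repressor, had 14244 bp on HRG, 9937 bp on EGF, 7446 bp in vehicle and 3520 bp in pSKBr3. HES1, a Notch target, had 8334 bp on HRG, 7005 bp in vehicle, 6994 bp on EGF, 1967 bp in pSKBr3 and 5351 bp in LRSKBr3. In the BT-474 vehicle, EGF and HRG lists it had 8690, 2551 and 9531 bp, so its width was not limited to HRG. MAFK (7356 bp) was wider in LRSKBr3, at 8277 bp. IER3 (6452 bp) had no peak in vehicle, EGF or BT-474. None of the FOS and JUN genes themselves had a start in a domain. Of 35 feedback inhibitors of growth factor signalling, SPRY4 alone had one (6327 bp on HRG, 2661 bp in vehicle), and 14 had a start in some HRG peak, a share near that of all coding genes.

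The respiratory chain and ATP synthase genes, which are classical ERRα targets, were mostly bound by narrower peaks. Of 86 genes, 82 had a start in an HRG peak and 0 in a domain, and the interval up to 4.28% includes the 2.03% over all coding genes, so a lower share than that was not shown. Cytosolic ribosomal protein genes gave 4 of 86 in a domain (RPL23A, RPSA, RPS14 and RPL13A) and 57 in some HRG peak, and core histone genes 1 of 69 (H2AC8, 5009 bp) and 24, which is near the 34.9% over all coding genes. At RPL23A the domain of 13508 bp, which also holds starts of RAB34, TLCD1 and NEK8, was matched by 11968 bp in vehicle and 11059 bp in LRSKBr3. The vehicle peak scored only 66.6, near the 50 at the peak-calling cutoff. RPSA and RPL13A had no vehicle or EGF peak, and 4541 and 4448 bp in LRSKBr3, and the RPSA domain on HRG scored only 64.15.

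Of 19 abundant nuclear noncoding RNA and host genes, 15 had a start in some HRG peak and 2, NEAT1 and MALAT1, in a domain. Over all annotated genes, noncoding ones included, these shares were 16.3% and 1.04%. The NEAT1 domain measured 10090 bp on HRG, 8395 bp in vehicle, 14957 bp on EGF, 7684 bp in pSKBr3, 8071 bp in LRSKBr3 and 24719, 7672 and 25019 bp in BT-474 vehicle, EGF and HRG. At MALAT1 the HRG domain of 5111 bp was matched by 3974 bp in vehicle and by 25288, 9361 and 17772 bp in BT-474. The widest peaks at both loci were thus those of BT-474 vehicle and HRG. ESRRA itself, which ERRα is known to regulate, lay just under the limit at 4640 bp on HRG, with 3182 bp in vehicle and 4691 bp in BT-474 vehicle. The peak at TFF1, an oestrogen-responsive gene, was 1560 bp on HRG and 1186 bp on EGF, with none in vehicle, pSKBr3 or LRSKBr3, and 2268, 1929 and 2264 bp in BT-474 vehicle, EGF and HRG. None of 22 genes of the HER2 amplicon on chromosome 17 had a start in any HRG peak. Between 37560538 and 38574148 the HRG, vehicle and EGF lists had 0 peaks, pSKBr3 3, LRSKBr3 6 (3 of them broad) and the BT-474 lists 10, 8 and 9.

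Motif words were sparser per base in the domains than in narrow peaks. ERRE words occurred 3.86 times per 100 kb of domain (interval 3.43 to 4.29), against 1.71 in flanks of equal width 2 kb away, 7.71 in all HRG peaks and 10.9 in strong narrow peaks. At least 1 such word lay in 261 domains (23.3%, interval 20.9 to 25.8) and in 12.9% of all HRG peaks, which are shorter. AP-1 words occurred 21.7 times per 100 kb (20.7 to 22.7), against 17.6 in the flanks and 27.8 in all HRG peaks. At least 2 ERRE words lay in 44 domains (3.92%) and 0.981% of all HRG peaks, with about equal rates per Mb of 5.44 and 5.38. The direct repeat shown above for KCNMA1 and ELF3 occurred in 3 domains, of 30 HRG peaks with it. An ERRE word overlapping an AP-1 word, as in the second KCNMA1 window, occurred in 5 domains and 57 HRG peaks. The most ERRE words, 4, were in the CMIP domain, which was 7989 bp wide on HRG, 4979 bp in vehicle and 7958 bp on EGF. The most AP-1 words, 10, were found near NFATC2, at the S100A cluster and in ARSI. Median GC content was 50.2% (49.6 to 50.7), against 48.5% in all HRG peaks. Pooled over all bases it was 49.4% in the domains and 47.3% in the flanks. The median CpG observed to expected ratio was 0.245, against 0.238 in all HRG peaks.

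The 187 domains called in no other list differed in base composition. Their median GC content was 38.6% (interval 38.0 to 39.4), the same as that of their flanks, 38.6%, whereas it was 51.7% (51.3 to 52.2) in the 379 called in all 7 other lists, above 48.7% in their flanks. A coding start lay in 3.21% of the former (1.48 to 6.82) and 41.2% of the latter (36.3 to 46.2), and an ERRE word in 3.74% and 32.7%. ERRE words occurred 0.677 times per 100 kb in the former and 5.34 times in the latter. The median score was 123 against 2329. AP-1 words occurred 9.47 and 24.9 times per 100 kb. In HRG peaks under 5000 bp the starts, ERRE words and scores ran the same way, and GC content and AP-1 words did not. The 6833 called in no other list held a start in 9.95%, 3.13 ERRE words per 100 kb and a median score of 74.2, against 20.6%, 13.3 words and 623 in those called in all 7, while their median GC content was 48.1% (47.9 to 48.5) against 46.4% and AP-1 words occurred 25.7 against 25.3 times per 100 kb. Of the 187, 64 (34.2%; all domains, 18.8%) lay on chromosome 7 and 30 (16.04%; all domains, 14.4%) on chromosome 20, the latter near the share of all domains. The widest were an intron of RALGPS2 (12149 bp, score 74.7), and intergenic or intronic stretches near SPATA7 (10354 bp, score 105), DOK5 (10276 bp, 51.7), RSKR and SLC13A2 (10250 bp, 124), ZFP64 (10098 bp, 101) and ACTRT3 (9856 bp, 94.2). Their GC content was 35.8% to 38.6%, except for 57.0% at RSKR and SLC13A2. The ACTRT3 window above shows this kind of sequence.

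**Figure D5:**
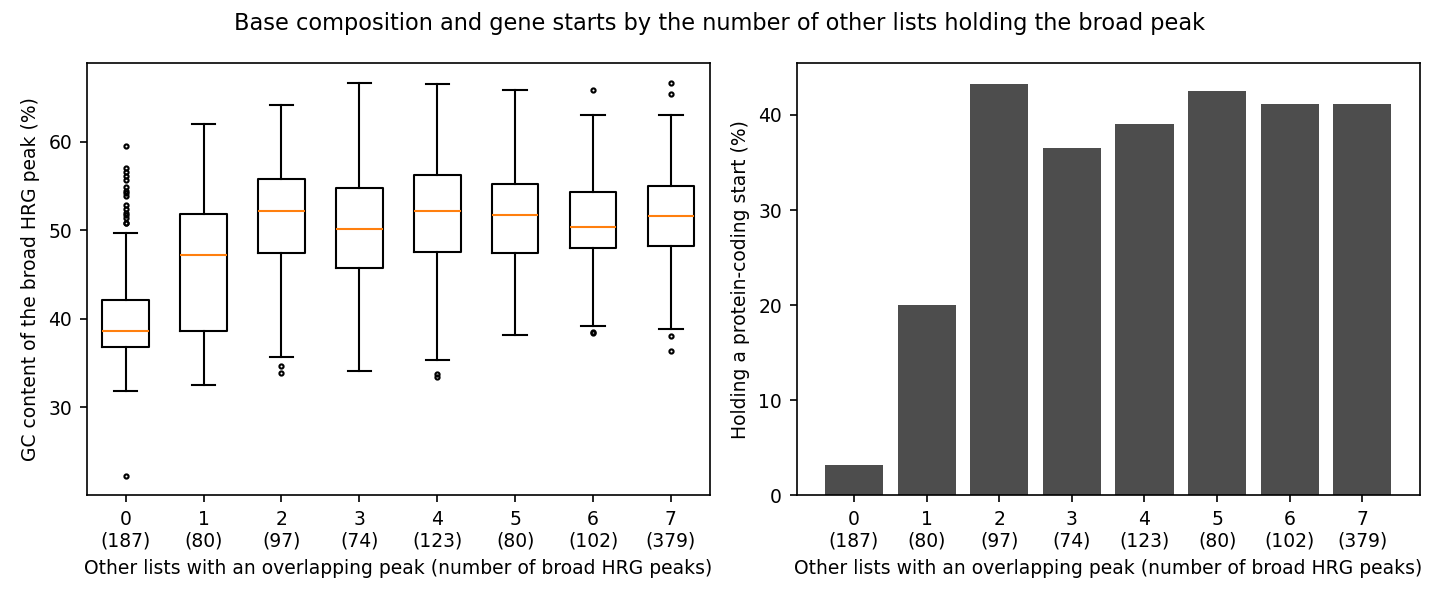
GC content of the 1122 domains (left; box, median and quartiles; whiskers, 1.5 times the interquartile range; points, domains beyond them) and percent holding a protein-coding start (right) by the number of the 7 other lists with an overlapping peak, with the number of domains in brackets. Domains in 0 other lists have a median GC content of 38.6% and 3.21% hold a start, against 51.7% and 41.2% for those in all 7.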

How the data were processed

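ERRα ChIP-seq peak lists of 8 conditions were analysed, made from 19 libraries (13 ChIP, 6 input). According to the study's methods, the authors aligned reads to hg19 (GRCh37) with BWA 0.5.9 and ran the peak caller MACS with a P cutoff of 1e-05. Per the labels, both replicates of an SKBr3-derived condition belong to 1 peak list, which is taken here as called on pooled replicates. The submitters' processing notes also name SAMtools 0.1.18. The score deposited with each peak is -10 log10 of its P value, with 50 at the cutoff. It depends on depth and was used only within its list. Start and end coordinates are those of the deposited files. The 3 lists of the SKBr3 growth factor experiment, vehicle included, carry comment lines naming FindPeaks, although their peaks bear MACS names. Whether that step changed their widths was not tested. Per-library tag counts were not used here, and 1 of the gene lists is not reported here.

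Domains are HRG peaks with end minus start of at least 5000 bp. A peak of another list matched when it shared at least 1 bp, and the widest match gave its width. Gene starts were taken from GENCODE v44lift37 (20136 protein-coding genes), and words and GC content from the GRCh37 sequence over whole peaks. Shares have Wilson intervals at 95%, differences of shares Newcombe intervals, and medians order-statistic intervals. Domains are not replicates of a condition, and no P value is given. Domains and gene lists were chosen with earlier results of these data known. Named domains are the 12 widest, the 10 with the widest matches on average, up to 6 in no other list and up to 6 with the smallest vehicle match among those broad in LRSKBr3, those with the most words, those next to the width limit, ESRRA, TFF1 and members of the gene lists; others are marked in the text. Matching and word search were tested on simulated data and recovered 1711 of 1711 simulated matches and 747 of 747 planted words. Python 3.11.15, pandas 2.3.3 and pysam 0.24.0 were used. Alternatives for width, overlap and windows are given below.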

Additional observations from a re-analysis of the deposited data

How the results depend on the processing

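No paired analysis was possible because each condition has 1 peak list and the lists carry no replicate numbers. Of 111 alternative values for 60 results, 22 stayed within the interval of the value reported (or, for counts and differences between lists, within 1.5 times it), 67 moved and 22 changed sign. A peak over the centre of the domain and all alternatives for differences were chosen after seeing the data. In the order vehicle, EGF, pSKBr3, LRSKBr3, then BT-474 vehicle, EGF and HRG, 50% coverage turned the difference from all HRG peaks to -8.22, -9.78, -7.60, -6.54, -15.3, -16.3 and -17.5 points. The difference from strong narrow peaks became -30.4, -34.6, -30.6, -25.7, -28.5, -28.6 and -31.6 points, a change of sign in pSKBr3 and BT-474. That from peaks of 4000 to under 5000 bp became -5.22, -5.14, -2.81, -2.94, -9.49, -7.57 and -7.65 points, a change of sign in all but EGF. The share with a peak in vehicle minus that in pSKBr3 turned from -13.1 to 6.77 points at 50% coverage and 0.45 over the centre, and EGF minus pSKBr3 from -6.33 to 14.3 and 6.51. For broad matches, vehicle minus pSKBr3 went from 13.7 to -4.19 points with equal numbers of widest peaks and 8.73 by summed length, and EGF minus pSKBr3 from 17.6 to 1.16 with equal numbers. The cause was not tested. A width limit of 4000 bp gave 2015 domains and one of 7500 bp gave 334. In the same order, coverage of 50% of the domain lowered the share with a peak to 38.7%, 46.3%, 31.9%, 57.8%, 19.96%, 9.45% and 19.3%. A peak over the centre gave 42.8%, 48.8%, 42.3%, 60.3%, 31.1%, 21.7% and 31.5%. Peaks with P at most 1e-10 gave 49.8%, 56.3%, 60.9%, 72.0%, 47.3%, 37.3% and 48.3%. Lists cut to their 22539 strongest peaks gave 51.2% in vehicle, 57.0% in EGF, 69.9% in LRSKBr3, 47.5% in BT-474 vehicle and 46.2% in BT-474 HRG. A summed covered length of at least 5000 bp gave a broad match for 27.6% in EGF, 14.1% in pSKBr3, 33.1% in LRSKBr3, 10.7%, 4.90% and 10.4% in BT-474. With the 1122 widest peaks of each list the broad match was 25.1%, 30.5%, 29.3% and 34.1% in the SKBr3-derived lists and 3.74% in BT-474 EGF. The summed covered length raised the width ratio to 0.674, 0.725, 0.482, 0.712, 0.419, 0.334 and 0.397. At 4000 bp in the other lists 19 domains were broad in all 7, and without the BT-474 lists 39. A start lay in 41.0% for all annotated genes, within 1 kb of the centre in 16.8%, and in 45.8% at 7500 bp. The chromosome 20 ratio was 4.20 at 4000 bp, and per Mb the ratios were 7.09, 3.66, 3.19 and 2.14 for chromosomes 20, 7, 17 and 1. Neighbours within 1 Mb were present for 90.6%, and within 100 kb for 42.8% at 7500 bp. Median GC content was 51.5% at 7500 bp, and the CpG ratio was 0.224 in the central 1000 bp. ERRE words per 100 kb rose to 5.17 in the central 1000 bp and to 30.1 for the last 7 letters alone. The depth of the libraries is unknown, so a missing peak is a peak not called at that depth.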

Other observations

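Broad peaks of the other lists outside the domains were also frequent. Of the 657 broad LRSKBr3 peaks, 423 (64.4%) overlapped an HRG peak and 283 (43.1%) a domain. Of the 803 broad EGF peaks the values were 477 (59.4%) and 280 (34.9%), and of the 231 broad pSKBr3 peaks 102 (44.2%) and 80 (34.6%). In BT-474, 194 of 592 broad EGF peaks (32.8%) overlapped an SKBr3 HRG peak and 29 (4.90%) a domain. The matching shares over all peaks of each list were not counted, so whether these values differ from that background was not tested.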
